A study of Mus musculus with 12 samples.

Results

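The genes described here are the 32 genes of sterol and fatty acid synthesis on a list of gene names, among 23420 genes counted in mouse CD8 T cells that had or lacked Otub1, the gene of a deubiquitinase. They are the SREBP transcription factors with their regulators (5 genes), the mevalonate arm (7), the steps from squalene to cholesterol (9), a sterol carrier (1), fatty acid synthesis (5) and desaturation with phosphatidate metabolism (5). All 32 were listed in every count file, and 31 passed the filter on low counts. The exception was Me1, the cytosolic malic enzyme that supplies NADPH, with 1 to 6 reads in a library and no test.

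RNA sequencing covered 4 groups of 3 libraries. Stimulated knockout and stimulated wild-type cells were cultured for 24 h on anti-CD3 fixed to the plate, together with anti-CD28, both at 1 µg/ml. Fresh knockout and fresh wild-type cells carry the label untreated and no culture time, so stimulation and culture form 1 factor. All mice were C57BL/6, 6 to 8 weeks old by their age tag, and carried OT-I, a transgenic T cell receptor for an ovalbumin peptide. The knockout is written OTUB1-CD4Cre-OT-I in the design text and OTUB1-DKO in the genotype tag. CD4-Cre acts in developing T cells, so most other cells of the spleen keep the gene. The design text names naive splenic CD8 T cells, whereas a cell type tag names splenic DCs. Nothing in the labels ties each library of a group to its own animal. The p-values cover the spread between these libraries, of which an unknown part may be technical.

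Library totals ran from 15064488 to 25920035 gene counts. Otub1 (chromosome 19, 7198202 to 7206316, GRCm38) was at 16.2, 13.8 and 14.5 CPM in stimulated knockout, against 85.7, 100.1 and 96.1 CPM in stimulated wild type. It was at 25.4, 28.8 and 28.6 CPM in fresh knockout, against 72.6, 70.8 and 45.1 CPM in fresh wild type, so the knockout libraries lay below the wild-type libraries in both states. CPM is the count of a gene per 1e6 counts of its library, with TMM scaling. The 7 CD8 T cell genes measured summed to 1720 to 1880 CPM in stimulated knockout, 2080 to 2190 in stimulated wild type, 5290 to 5520 in fresh knockout and 5170 to 5380 in fresh wild type. The 12 markers of dendritic cells summed to 77.5 to 95.7, 88.8 to 105, 1170 to 1750 and 1460 to 1790 CPM in the same groups, and none was at 0 in a whole group. In such bulk libraries fewer cells of a type and less RNA per cell cannot be told apart. Y-linked reads were found in 3 libraries: stimulated knockout replicate 3, fresh knockout replicate 2 and fresh wild-type replicate 3. The other 2 libraries of each of those groups held almost none, so each of these 3 groups holds libraries of more than 1 animal.

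Cells make cholesterol from acetyl-CoA through mevalonate, isoprenoid units, squalene and lanosterol, and they make fatty acids from the same acetyl-CoA through malonyl-CoA. The SREBP factors switch on the genes of both routes: when membranes are short of sterol, the escort protein SCAP carries the SREBP precursor out of the endoplasmic reticulum to be cleaved, and when sterol is plentiful the INSIG proteins hold both back. T cells that have seen antigen are known to turn these routes on before they divide, and sterol made in excess leaves the cell through pumps controlled by LXR.

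Promoter sequences from RefSeq are shown for Hmgcs1, whose window matches a sterol regulatory element, for Idi1, Cyp51 and Fads2, which stimulation raised over 10-fold, and for Lpin1, which it lowered. Each runs from 250 bases before to 50 bases after a transcription start, in GRCm38.p6, on the strand of the gene. Capitals mark 2 motifs searched on both strands: the sterol regulatory element written TCACNCCAC and the CCAAT box, which appears as ATTGG when it lies on the other strand. The windows lie at chr13:119690101-119690400, plus strand (Hmgcs1), chr13:8885356-8885655, plus strand (Idi1), chr5:4104648-4104947, minus strand (Cyp51), chr19:10101454-10101753, minus strand (Fads2) and chr12:16610917-16611216, minus strand (Lpin1).
Hmgcs1: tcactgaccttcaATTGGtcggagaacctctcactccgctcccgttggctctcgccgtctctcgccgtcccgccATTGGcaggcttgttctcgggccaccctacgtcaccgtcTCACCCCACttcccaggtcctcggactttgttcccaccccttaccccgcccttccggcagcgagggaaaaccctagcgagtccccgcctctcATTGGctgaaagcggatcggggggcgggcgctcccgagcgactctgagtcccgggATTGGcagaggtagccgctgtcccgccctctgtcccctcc
Idi1: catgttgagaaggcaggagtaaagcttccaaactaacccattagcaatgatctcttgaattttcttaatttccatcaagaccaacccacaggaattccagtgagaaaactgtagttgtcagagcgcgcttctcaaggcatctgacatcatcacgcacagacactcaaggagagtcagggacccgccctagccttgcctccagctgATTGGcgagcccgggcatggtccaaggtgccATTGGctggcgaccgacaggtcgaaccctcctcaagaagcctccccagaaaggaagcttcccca
Cyp51: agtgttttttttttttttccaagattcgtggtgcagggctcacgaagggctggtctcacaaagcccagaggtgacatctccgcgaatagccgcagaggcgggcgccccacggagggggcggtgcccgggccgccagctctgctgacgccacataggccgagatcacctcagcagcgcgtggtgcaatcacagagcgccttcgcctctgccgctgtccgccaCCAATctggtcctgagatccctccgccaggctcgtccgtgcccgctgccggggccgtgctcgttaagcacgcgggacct
Fads2: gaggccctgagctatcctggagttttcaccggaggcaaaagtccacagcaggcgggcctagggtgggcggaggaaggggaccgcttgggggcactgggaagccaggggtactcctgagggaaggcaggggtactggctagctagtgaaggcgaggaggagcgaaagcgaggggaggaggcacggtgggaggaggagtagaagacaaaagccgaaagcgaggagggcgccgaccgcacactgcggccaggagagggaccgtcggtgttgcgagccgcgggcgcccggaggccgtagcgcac
Lpin1: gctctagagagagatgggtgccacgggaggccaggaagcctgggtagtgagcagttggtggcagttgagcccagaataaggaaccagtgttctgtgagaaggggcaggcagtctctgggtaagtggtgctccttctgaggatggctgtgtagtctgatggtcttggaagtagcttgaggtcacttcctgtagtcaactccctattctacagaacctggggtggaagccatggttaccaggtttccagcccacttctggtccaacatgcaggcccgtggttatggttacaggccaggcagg

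Among the listed genes 25 had such a window, 34 windows in all. The sterol regulatory element was found in 1 of these 34 windows (2.94%), that of Hmgcs1, where it read TCACCCCAC from position −137, against 1.24% of all 32851 windows. The CCAAT box was found in 20 of the 34 (58.8%), against 37.4% of all windows. Of the listed genes that rose with stimulation in wild type and had a window, 14 of 17 (82.4%) held a CCAAT box, against 44.5% of all 3941 genes that rose and had one. Neither of the 2 that fell, Elovl6 and Lpin1, held it, while 4 of the 5 that were not called did (80.0%). The windows of Fads2 and Lpin1, 1 gene that rose and 1 that fell, hold neither motif. These are matches of letters in short windows, given without a test.

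The first question was what stimulation did to these genes in each genotype. In knockout cells 26 of the 31 tested genes rose and 2 fell, where 41.7% of all tested genes rose and 42.2% fell. In wild-type cells 23 rose and 3 fell, where 40.8% of all tested genes rose and 41.4% fell. The median log2 fold change of the listed genes was 1.5 in knockout and 1.41 in wild type, against −0.02 and −0.03 over all tested genes. Both comparisons used the quasi-likelihood test of edgeR; rose and fell stand for a p under 0.05 after Benjamini-Hochberg adjustment over all tested genes. In the map of the genes by library, the sterol steps from Hmgcs1 to Cyp51 were above fresh levels in all 6 stimulated libraries. The size of the rise differed widely, in wild type from 1.17-fold for Mvd to 14.8-fold for Idi1.

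**Figure D1:**
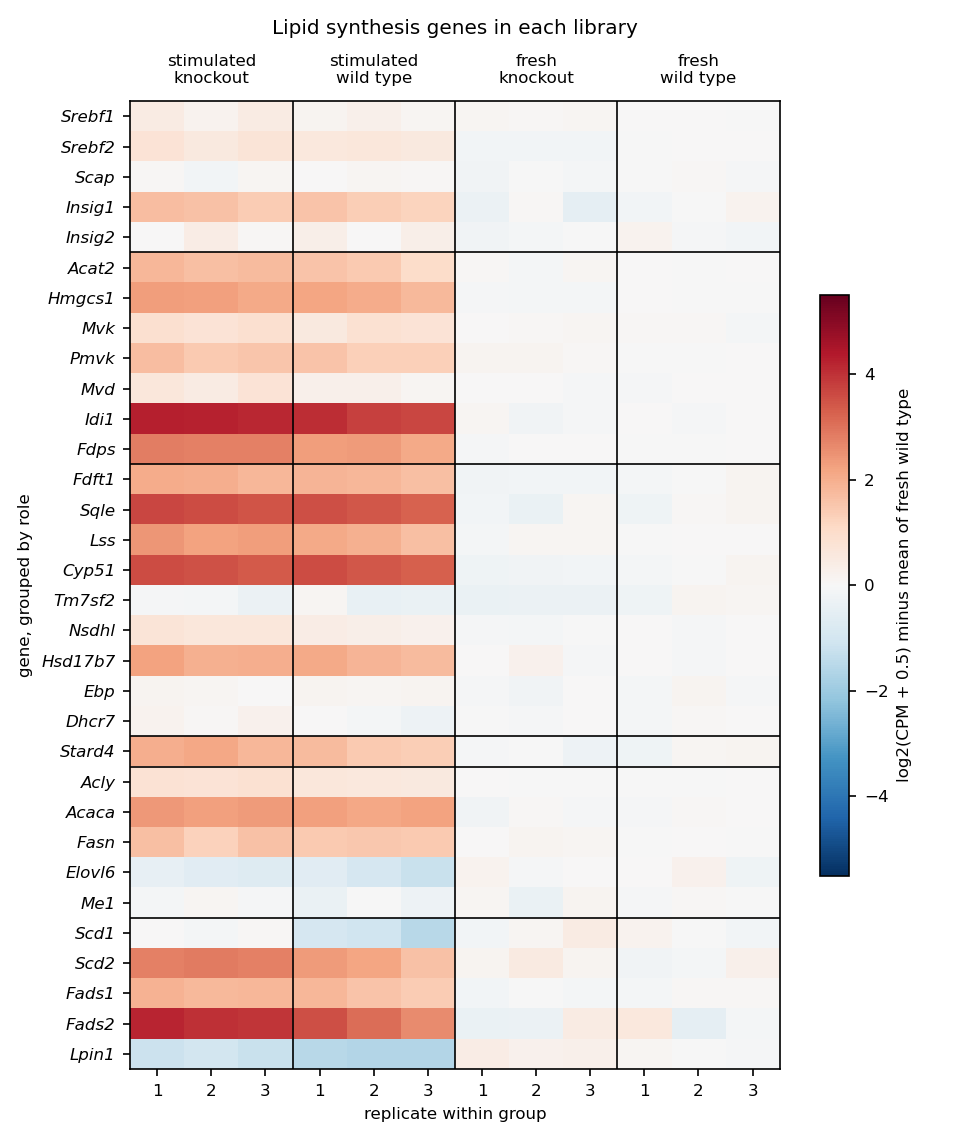
Each row is a gene, grouped by role, and each column a library. Colour gives log2(CPM + 0.5) minus the mean of the 3 fresh wild-type libraries; Idi1, Sqle, Cyp51 and Fads2 are the darkest rows in the stimulated libraries, and Elovl6 and Lpin1 are below fresh levels in both genotypes.

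Both SREBP genes rose, with a larger fold change for Srebf2. Srebf2, which mainly drives cholesterol genes, was at 360.1, 315 and 353 CPM in stimulated knockout and 317, 333 and 312 CPM in stimulated wild type, against 195, 192 and 195 CPM in fresh knockout and 210.4, 219 and 216 CPM in fresh wild type. All stimulated libraries lay above all fresh ones. Its log2 fold change was 0.82 in knockout (SE 0.05, edgeR adjusted p = 2.8e-10) and 0.58 in wild type (SE 0.05, edgeR adjusted p = 2.62e-08). Srebf1, which mainly drives fatty acid genes, rose by a log2 fold change of 0.27 in knockout and 0.18 in wild type (edgeR adjusted p = 0.00129 and 0.0197), and the wild-type call was lost without stimulated wild-type replicate 2 (edgeR adjusted p = 0.0964), without fresh wild-type replicate 3 (0.0652) or without the libraries with Y-linked reads (0.0673). Counts per gene do not separate the isoforms of Srebf1.

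The regulators of SREBP processing differed from each other. Insig1, itself a target of SREBP that retains SCAP, was at 93.1, 88.9 and 76.7 CPM in stimulated knockout and 86.9, 74.8 and 67.2 CPM in stimulated wild type, against 22.6, 30.2 and 19.99 CPM in fresh knockout and 25.9, 27.8 and 32.4 CPM in fresh wild type. Its log2 fold change was 1.83 in knockout and 1.41 in wild type (SE 0.14 each, edgeR adjusted p = 3.22e-09 and 8.5e-08). Insig2, the related retention protein, stayed between 11.2 and 16.9 CPM in all 12 libraries. It was called in knockout (log2 fold change 0.28, edgeR adjusted p = 0.0403) and not in wild type (0.24, edgeR adjusted p = 0.0854), and the knockout call was lost in 6 of the alternatives tried (edgeR, DESeq2 or limma adjusted p up to 0.197). Scap was not called in either genotype, with log2 fold changes of 0.13 (95% interval −0.01 to 0.27) in knockout and 0.06 (−0.08 to 0.20) in wild type.

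All 7 genes of the mevalonate arm rose in both genotypes. Idi1, the isomerase that interconverts the isoprenoid building blocks, was at 329, 320.5 and 307 CPM in stimulated knockout and 284, 234 and 220.5 CPM in stimulated wild type, against 17.8, 14.6 and 16.1 CPM in fresh knockout and 17.1, 16.03 and 16.9 CPM in fresh wild type. That is 19.8-fold in knockout and 14.8-fold in wild type (log2 fold change 4.31 and 3.89, SE 0.09 each, edgeR adjusted p = 2.09e-15 and 8.11e-15). Hmgcs1, which makes HMG-CoA in the cytosol, rose 4.99-fold in knockout and 4.06-fold in wild type. Fdps, which makes farnesyl diphosphate, rose 7.06-fold and 4.77-fold.

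The arm was uneven, with small steps beside large ones. Acat2, the cytosolic thiolase that starts the route, rose 3.40-fold in knockout and 2.64-fold in wild type. Pmvk, phosphomevalonate kinase, rose 2.82-fold and 2.73-fold. Mvk, mevalonate kinase, rose 1.78-fold and 1.69-fold, and Mvd, the decarboxylase after Pmvk, 1.56-fold and 1.17-fold. The wild-type call of Mvd (log2 fold change 0.23, edgeR adjusted p = 0.0213) was lost without fresh replicate 1 or stimulated replicate 1 or 2 (edgeR adjusted p up to 0.0709).

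From squalene to cholesterol, 8 of 9 genes rose in knockout and 6 of 9 in wild type. Sqle, the squalene epoxidase that is a rate-controlling step, was at 125, 118 and 107 CPM in stimulated knockout and 115, 106 and 91.6 CPM in stimulated wild type, against 8.31, 7.06 and 10.2 CPM in fresh knockout and 7.96, 9.83 and 10.4 CPM in fresh wild type. Cyp51, the lanosterol demethylase, was at 209, 196 and 177 CPM in stimulated knockout and 209, 184 and 166 CPM in stimulated wild type, against 14.2, 14.5 and 14.9 CPM in fresh knockout and 15.3, 16.7 and 18.4 CPM in fresh wild type. Both genes rose over 10-fold in each genotype: Sqle 13.7-fold in knockout and 11.0-fold in wild type, Cyp51 13.4-fold and 11.1-fold. Fdft1, the squalene synthase, rose 4.54-fold and 3.52-fold, Lss, lanosterol synthase, 4.95-fold and 3.83-fold, and Hsd17b7, a sterol ketone reductase, 4.14-fold and 3.89-fold.

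The late enzymes moved little. Nsdhl, a sterol dehydrogenase of the demethylation complex, rose 1.67-fold in knockout and 1.27-fold in wild type. Ebp, the sterol isomerase, and Dhcr7, which catalyses a last reduction, rose in knockout at 1.14-fold and 1.15-fold (edgeR adjusted p = 0.0382 and 0.0321), and each call was lost in several alternatives (adjusted p up to 0.174 and 0.221). In wild type their log2 fold changes were 0.13 (95% interval −0.04 to 0.30) and −0.11 (−0.28 to 0.07), not called, and neither gene had a called difference between the genotypes' responses (edgeR adjusted p = 0.851 and 0.188). Tm7sf2, a sterol reductase whose activity is shared with another enzyme, was called in neither genotype and lay between 3.998 and 6.10 CPM in the 12 libraries. Ebp and Nsdhl are X-linked.

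Per kilobase of exon, the order of the steps changed with stimulation, as the plot along the pathway shows. Mean levels in stimulated knockout ran from 1.11 CPM per kb for Tm7sf2 to 91.0 for Idi1, and in stimulated wild type from 1.07 for Tm7sf2 to 70.3 for Idi1. In fresh knockout they ran from 0.970 CPM per kb for Tm7sf2 to 12.1 for Mvd, and in fresh wild type from 1.26 for Tm7sf2 to 12.4 for Ebp. Ebp, at 13.3 and 13.6 CPM per kb in stimulated knockout and stimulated wild type, ranked among the highest of the sterol genes in fresh cells, and in both stimulated groups Idi1, Hmgcs1, Cyp51, Fdps, Sqle, Pmvk and Mvd had higher mean levels. Lengths are those of all annotated exons of a gene, so a level per kb is lower than the true one where a cell uses few of them.

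**Figure D2:**
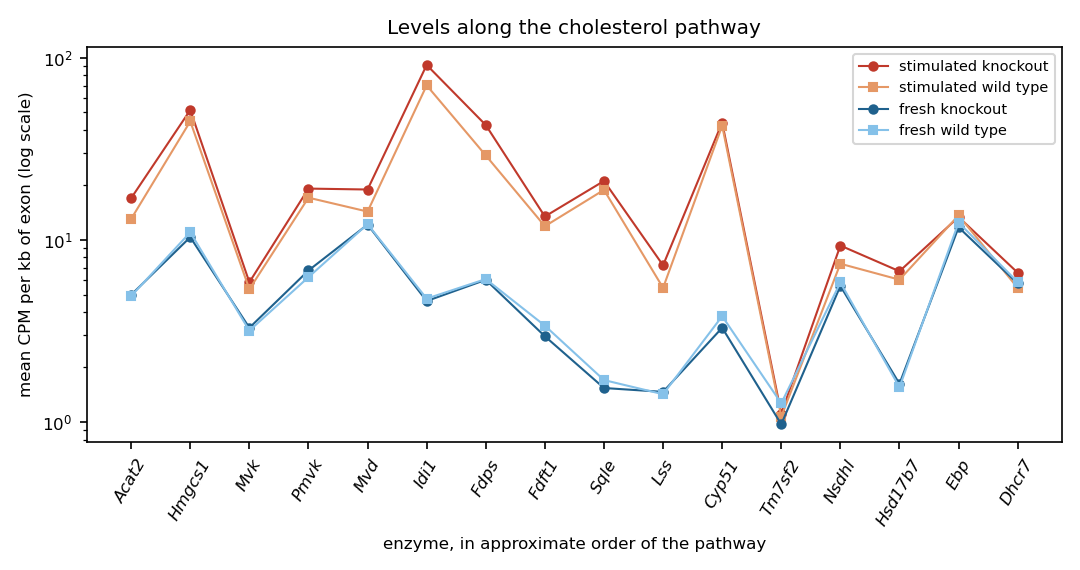
Mean level per kb of exon (log scale) of the sterol enzymes in approximate pathway order, 3 libraries a group. The stimulated groups run above the fresh groups by the largest distance at Idi1, Sqle and Cyp51. The groups lie close together at Tm7sf2, Ebp and Dhcr7. At Dhcr7 stimulated wild type is below both fresh groups, and at Tm7sf2 fresh wild type is the highest.

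Stard4, which carries cholesterol between membranes, was at 79.1, 86.2 and 70.3 CPM in stimulated knockout and 66.4, 52.5 and 49.8 CPM in stimulated wild type, against 18.4, 18.8 and 16.1 CPM in fresh knockout and 16.3, 20.6 and 21.4 CPM in fresh wild type. It rose 4.42-fold in knockout and 2.89-fold in wild type (edgeR adjusted p = 1.13e-10 and 9.33e-09).

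Of the 4 tested genes of fatty acid synthesis, Acaca, Fasn and Acly rose and Elovl6 fell in both genotypes. Acaca, the acetyl-CoA carboxylase that makes malonyl-CoA, rose 5.21-fold in knockout and 4.65-fold in wild type. Fasn, the fatty acid synthase, was at 1032, 791 and 1002 CPM in stimulated knockout and 904, 935 and 899 CPM in stimulated wild type, against 331, 371 and 349.9 CPM in fresh knockout and 324, 337 and 328 CPM in fresh wild type. It rose 2.68-fold and 2.77-fold. Acly, which frees acetyl-CoA from citrate, rose by a log2 fold change of 0.80 in knockout and 0.58 in wild type. Elovl6, which lengthens palmitate, fell by 0.67 on the log2 scale in knockout and by 0.93 in wild type (edgeR adjusted p = 0.000322 and 1.68e-05).

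The desaturases went in different directions. Scd2, the stearoyl-CoA desaturase that is widely expressed outside the liver, was at 584, 610.5 and 583 CPM in stimulated knockout and 424, 376 and 256 CPM in stimulated wild type, against 92.9, 119 and 93.7 CPM in fresh knockout and 72.7, 78.8 and 104 CPM in fresh wild type. It rose 5.80-fold in knockout and 4.15-fold in wild type (edgeR adjusted p = 4.5e-10 and 7.15e-09). Its paralog Scd1 fell in wild type, with a log2 fold change of −1.23 (SE 0.17, edgeR adjusted p = 5.65e-06), and was not called in knockout (−0.15, 95% interval −0.48 to 0.18). The 2 genes lie beside each other on chromosome 19, and reads that match both would be lost or shared, depending on counting settings that the sources used here do not state.

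Fads1 and Fads2, the desaturases of polyunsaturated fatty acids, both rose. Fads1 rose 3.92-fold in knockout and 3.11-fold in wild type. Fads2 was at 17.2, 15.1 and 14.2 CPM in stimulated knockout and 10.8, 7.66 and 5.32 CPM in stimulated wild type, against 0.260, 0.272 and 0.815 CPM in fresh knockout and 0.972, 0.194 and 0.400 CPM in fresh wild type. The fresh libraries held 4 to 17 reads of Fads2, so its fitted log2 fold changes of 5.09 (SE 0.37) and 3.96 (SE 0.40) rest on few counts. Lpin1, the phosphatidate phosphatase lipin 1, was at 24.6, 28.4 and 24.3 CPM in stimulated knockout and 19.5, 18.6 and 18.4 CPM in stimulated wild type, against 76.8, 67.6 and 68.6 CPM in fresh knockout and 61.3, 55.5 and 54.5 CPM in fresh wild type. It fell by 1.47 on the log2 scale in knockout and by 1.60 in wild type (edgeR adjusted p = 4.31e-11 and 2.62e-11).

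**Figure D3:**
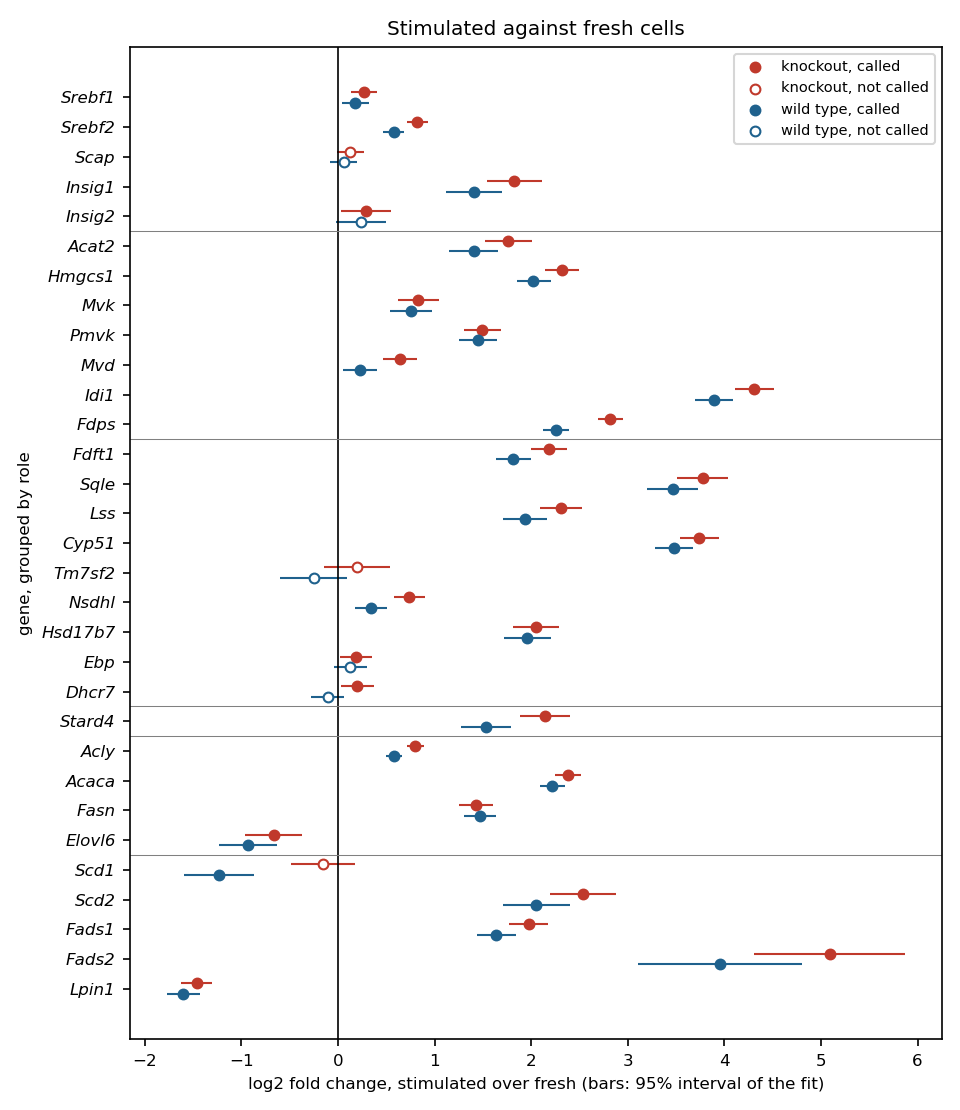
Log2 fold change of stimulated over fresh cells for the 31 tested genes in knockout (red) and wild type (blue), with the 95% interval of the fit; filled points were called. Most points lie right of 0, with Elovl6 and Lpin1 left of it in both genotypes and Scd1 left of it, with a filled point, in wild type.

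Markers of dendritic cells, B cells, myeloid cells and NK cells fell with stimulation as well. In each genotype 11 of 12, 8 of 8, 7 of 7 tested and 4 of 4 tested fell in this order, and 1 dendritic cell marker rose in knockout. Over all tested genes 42.2% fell in knockout and 41.4% in wild type. The CD8 T cell genes fell too, 7 of 7 in each genotype, with median log2 fold changes of −1.44 in knockout and −1.16 in wild type. The part of other cell types in the levels of Elovl6, Scd1 and Lpin1 was not tested. Without any 1 library of the groups compared, 23 to 26 of the listed genes rose and 2 fell in knockout, and 22 to 24 rose and 3 to 4 fell in wild type.

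The next question was what loss of Otub1 did in stimulated cells. Here 13 of the 31 tested genes rose in knockout and none fell by edgeR. Over all tested genes 5.08% rose and 4.22% fell. Before adjustment 18 were higher and 0 lower at a p under 0.05, against 3028 of all 12759 tested genes in either direction. With DESeq2 or limma-voom 0 of the listed genes fell as well. The median log2 fold change was 0.21 for the listed genes and −0.00476 for all tested genes. Every knockout library lay above every wild-type library for 13 of the 31 tested genes, and below for 0. Over all tested genes these shares were 14.3% and 13.1%. The 13 are the called genes, and the same libraries gave the calls, so the lack of overlap is no separate support. The comparison shares its stimulated libraries of both genotypes with the comparisons of stimulated and fresh cells, so the values are not independent.

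**Figure D4:**
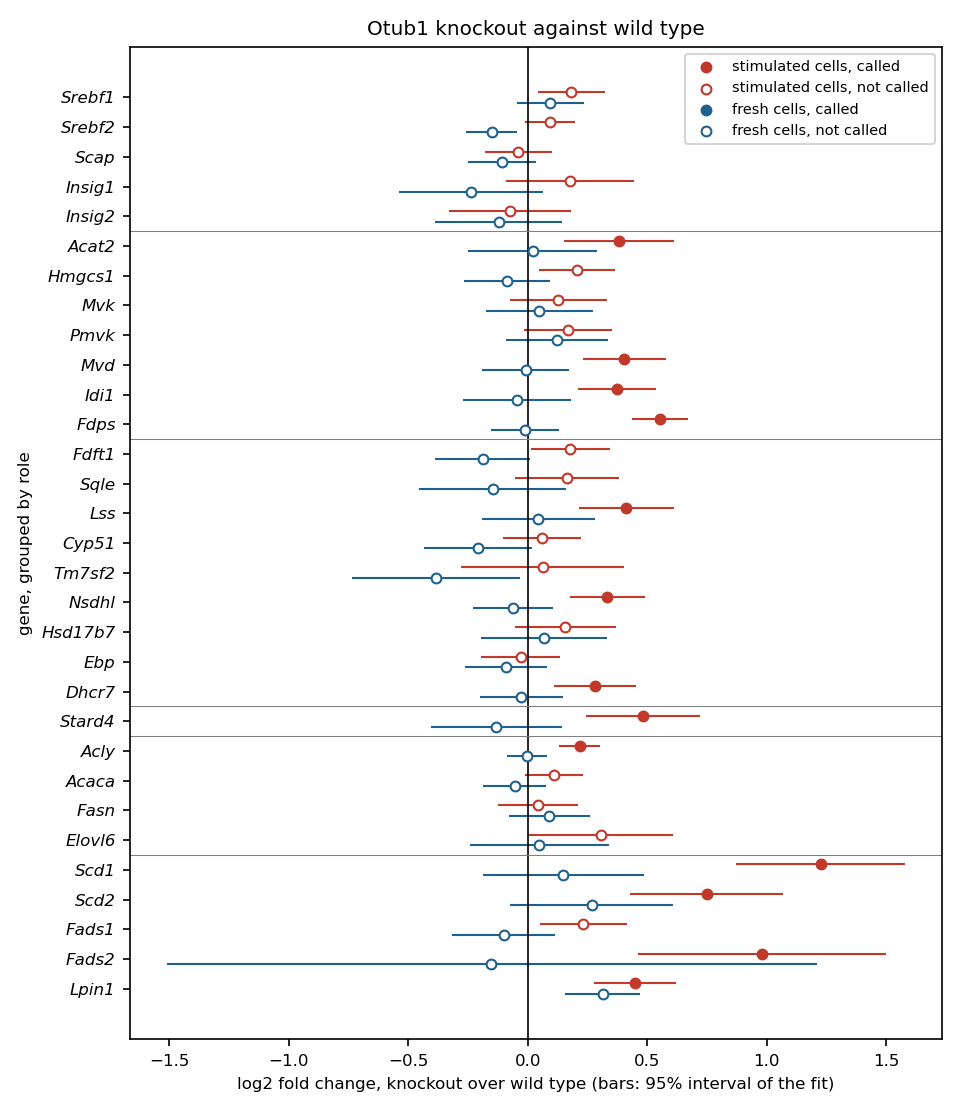
Log2 fold change of knockout over wild type for the 31 tested genes in stimulated (red) and fresh (blue) cells, with the 95% interval of the fit; filled points were called. The 13 filled points are all in stimulated cells and right of 0, from Acly at 0.22 to Scd1 at 1.23.

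In the mevalonate arm 4 of 7 genes rose. Fdps was at 183, 176 and 178 CPM in stimulated knockout, against 126, 129.9 and 109.9 CPM in stimulated wild type (179 ± 3.77 and 122 ± 10.7 CPM, SD, n = 3 each). Its log2 fold change was 0.55 (SE 0.05, edgeR adjusted p = 8.97e-05). Mvd was at 34.9, 31.4 and 38.9 CPM in stimulated knockout, against 27.7, 27.5 and 24.4 CPM in stimulated wild type (log2 fold change 0.41, SE 0.08, edgeR adjusted p = 0.00634). Idi1, with the values given above, had a log2 fold change of 0.37 (SE 0.08, edgeR adjusted p = 0.0073).

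Acat2 was at 45.6, 41.0 and 42.5 CPM in stimulated knockout, against 38.3, 35.2 and 25.9 CPM in stimulated wild type (log2 fold change 0.38, SE 0.11, edgeR adjusted p = 0.0384). Hmgcs1 was at 248, 244 and 218 CPM in stimulated knockout, against 230.1, 209 and 176 CPM in stimulated wild type, with overlap, and was not called (log2 fold change 0.21, 95% interval 0.05 to 0.37, edgeR adjusted p = 0.102). Mvk and Pmvk were not called either, at 0.13 (−0.07 to 0.33) and 0.17 (−0.01 to 0.35).

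Of the steps from squalene on, 3 of 9 rose. Lss was at 84.3, 73.1 and 76.8 CPM in stimulated knockout, against 65.7, 61.7 and 48.8 CPM in stimulated wild type (log2 fold change 0.41, SE 0.09, edgeR adjusted p = 0.0128). Nsdhl was at 27.5, 26.1 and 25.9 CPM, against 22.5, 21.2 and 19.5 CPM (log2 fold change 0.33, edgeR adjusted p = 0.0116), and Dhcr7 at 39.2, 35.6 and 40.2 CPM, against 34.9, 31.8 and 28.2 CPM (0.28, edgeR adjusted p = 0.0401), in stimulated knockout against stimulated wild type. Sqle and Cyp51, which stimulation had raised most in this arm, had log2 fold changes of 0.16 (95% interval −0.05 to 0.38) and 0.06 (−0.10 to 0.22) and were not called. Fdft1, Hsd17b7, Tm7sf2 and Ebp were not called, with values from −0.03 to 0.18.

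Stard4 rose with a log2 fold change of 0.48 (SE 0.11, edgeR adjusted p = 0.0146). None of the 5 SREBP genes was called by edgeR, DESeq2 or limma-voom, and 1 was higher before adjustment at a p under 0.05. Srebf1 was at 188, 155 and 187 CPM in stimulated knockout, against 154, 167 and 147 CPM in stimulated wild type (log2 fold change 0.18, 95% interval 0.04 to 0.32, edgeR adjusted p = 0.0962). Without stimulated knockout replicate 2, its low library, Srebf1 was called with an estimate of 0.27 on the log2 scale (edgeR adjusted p = 0.00603) and Srebf2 with 0.15 (edgeR adjusted p = 0.0422).

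Among the lipogenic genes the desaturases Scd1, Fads2 and Scd2 differed most. Scd1 was at 17.8, 16.3 and 18.5 CPM in stimulated knockout, against 8.97, 7.80 and 5.82 CPM in stimulated wild type (17.5 ± 1.15 and 7.53 ± 1.59 CPM, SD, n = 3 each). Its log2 fold change of 1.23 (SE 0.17, 2.34-fold, edgeR adjusted p = 0.000461) was the highest of the 31. Scd2, at the levels given above, rose 1.68-fold (log2 fold change 0.75, SE 0.15, edgeR adjusted p = 0.00652), and Fads2 rose 1.98-fold (0.98, SE 0.24, edgeR adjusted p = 0.02).

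Lpin1 rose 1.36-fold (log2 fold change 0.45, SE 0.08, edgeR adjusted p = 0.00345), although stimulation lowered it in both genotypes. Acly was at 509, 495 and 515 CPM in stimulated knockout, against 449, 431 and 426 CPM in stimulated wild type (log2 fold change 0.22, SE 0.04, edgeR adjusted p = 0.00361). Acaca, Fasn, Elovl6 and Fads1 were not called, with log2 fold changes of 0.11, 0.04, 0.31 and 0.23 (edgeR adjusted p from 0.107 to 0.782).

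**Figure D5:**
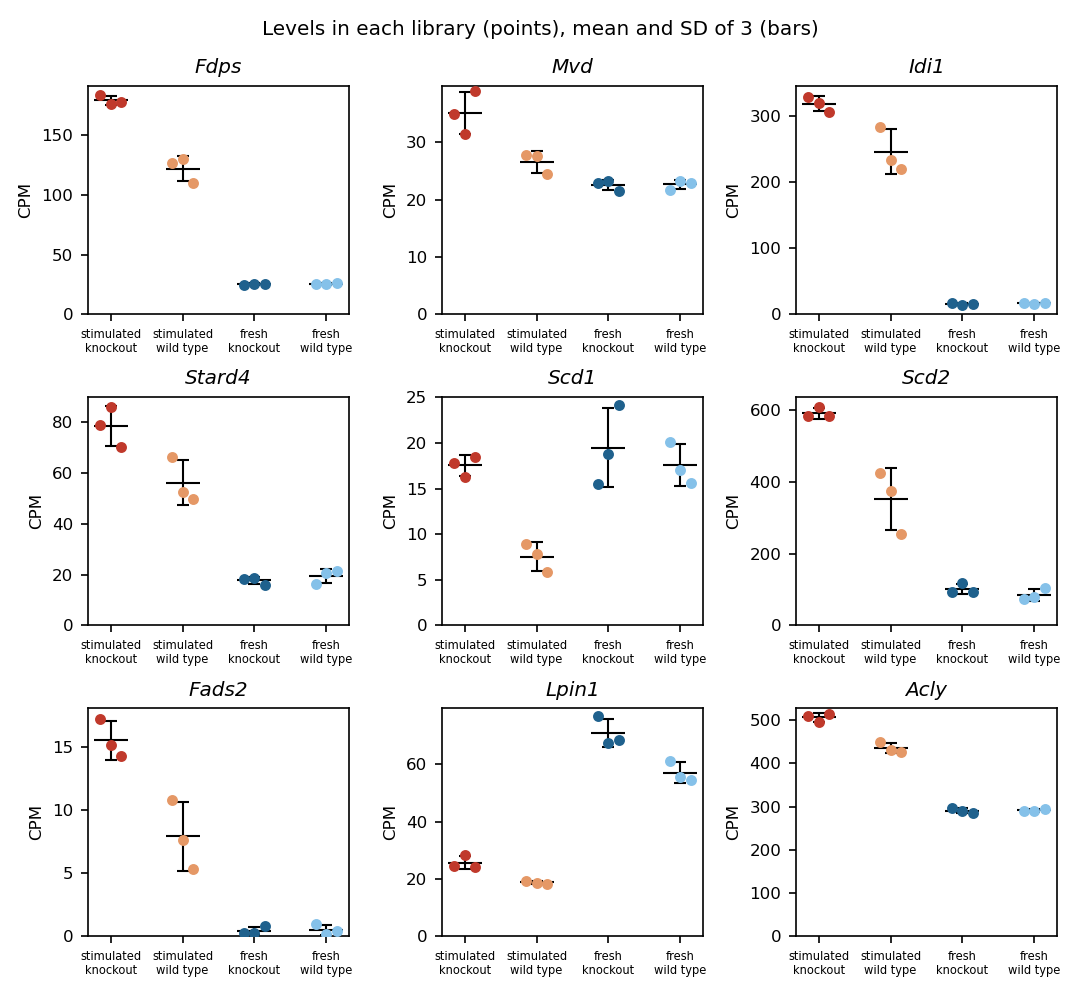
CPM of 9 genes in each library (points), with the mean and SD of 3 libraries (black). The 9 genes were picked from those called between the stimulated groups. In all 9 panels the 3 stimulated knockout points lie above the 3 stimulated wild-type points, and for Scd1 the stimulated wild-type points lie below those of every other group.

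Single libraries moved with these differences. Stimulated wild-type replicate 3 was the lowest of its group in 25 of the 31 genes, against 29.2% of all tested genes, and replicate 1 the highest in 23, against 40.1%. Stimulated knockout replicate 1 was the highest of its group in 22 of the 31, against 28.6% of all tested genes. Without stimulated wild-type replicate 3, 7 of the 13 calls were left: Fdps, Mvd, Idi1, Scd1, Scd2, Acly and Lpin1, which were also called in every other alternative. Acat2, Lss, Nsdhl, Dhcr7, Stard4 and Fads2 lost the call there (edgeR adjusted p from 0.0517 to 0.212). Over all 12 alternatives the call was lost in 7 for Acat2, 6 for Dhcr7, 4 for Fads2, 3 for Stard4, 2 for Lss and 1 for Nsdhl, and DESeq2 gave Fads2 an adjusted p of 0.198. CD8 T cell genes were lower in stimulated knockout, with 4 of 7 called, against 4.22% of all tested genes called lower. The part of this in the lipid genes was not tested.

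Several of these genes lie on the chromosome of Otub1. Tm7sf2, Fads2 and Fads1 are 1.13, 2.86 and 2.98 megabases from it, and Scd2 and Scd1 37.1 and 37.2 megabases. In stimulated knockout Scd1, Scd2 and Fads2 rose, and Fads1 and Tm7sf2 were not called. Of the 458 tested genes on chromosome 19, 5.02% rose in stimulated knockout, against 5.08% of those on other chromosomes. That share covers the whole chromosome and cannot describe the region near Otub1, whose part in these values was not tested. Exons of Fdps overlap another annotated gene on the same strand over 26.7% of their length, and those of Fdft1 a gene on the other strand over 18.3%. Neither the gene annotation used for counting nor its strand setting is stated in the sources used here.

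In fresh cells the same comparison gave no call among the listed genes. By edgeR 0 of 31 rose and 0 fell, where 0.98% of all tested genes rose and 0.219% fell. At an unadjusted p under 0.05, 1 was higher and 2 were lower, against 1803 of all 12759 tested genes in either direction. The median log2 fold change was −0.04, against −0.000178 over all tested genes. The groups did not overlap for 3 genes that were higher and 5 that were lower in knockout, against 10.6% and 9.42% of all tested genes. For the 13 genes called in stimulated cells, fresh estimates ran from −0.15 for Fads2 to 0.31 for Lpin1.

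Lpin1 was nearest to the threshold in fresh cells, at 76.8, 67.6 and 68.6 CPM in fresh knockout, against 61.3, 55.5 and 54.5 CPM in fresh wild type, without overlap (log2 fold change 0.31, SE 0.07, edgeR adjusted p = 0.0557). It was called with DESeq2 (adjusted p = 0.00731) and with limma-voom (adjusted p = 0.0289), and by edgeR without fresh knockout replicate 2 (adjusted p = 0.048) or fresh wild-type replicate 1 (0.0336). Srebf2 was at 195, 192 and 195 CPM in fresh knockout, against 210.4, 219 and 216 CPM in fresh wild type, again without overlap, and was not called (log2 fold change −0.15, 95% interval −0.26 to −0.04, edgeR adjusted p = 0.182). Tm7sf2 was at 4.16, 4.34 and 4.32 CPM, against 4.68, 6.10 and 5.93 CPM, in fresh knockout against fresh wild type, and was not called (log2 fold change −0.38, edgeR adjusted p = 0.298).

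Whether the effect of Otub1 loss differed between the states was tested with an interaction term, positive where knockout over wild type is higher in stimulated than in fresh cells. The term was called for 2 of the 31 genes, both positive, where 0.698% of all tested genes had a positive and 1.56% a negative call. The median over the listed genes was 0.31, against −0.00355 over all tested genes, and 30 of 31 estimates were above 0, Fasn being the other at −0.05. For Fdps the term was 0.57 (SE 0.09, edgeR adjusted p = 0.00607). Its knockout effect was 0.55 in stimulated cells and −0.01 in fresh cells.

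For Scd1 the term was 1.08 (SE 0.23, edgeR adjusted p = 0.0238), with knockout effects of 1.23 in stimulated and 0.15 in fresh cells. This call was lost without stimulated wild-type replicate 3, fresh wild-type replicate 2 or fresh knockout replicate 1 (edgeR adjusted p = 0.0623, 0.058 and 0.0528), and without the libraries that held Y-linked reads (0.0831). Acly, Nsdhl, Stard4, Mvd and Srebf2 were next, with terms of 0.22, 0.39, 0.61, 0.41 and 0.25 and edgeR adjusted p from 0.0553 to 0.084. Without stimulated knockout replicate 2 the term was called for 5 genes, and without stimulated wild-type replicate 1 for 6. The other genes called in stimulated cells, such as Scd2, Fads2, Idi1 and Lpin1, had terms of 0.48, 1.14, 0.42 and 0.13 that were not called (edgeR adjusted p from 0.113 to 0.595), so a difference between the states was not shown for them.

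Other genes of the sterol route were read from a list of 18. In knockout 10 rose and 5 fell with stimulation, against 41.7% and 42.2% of all tested genes, and in wild type 10 rose and 7 fell, against 40.8% and 41.4%. Idi2, a paralog and neighbour of Idi1, was at 8.01, 9.47 and 10.0 CPM in stimulated knockout and 5.21, 4.14 and 5.07 CPM in stimulated wild type, and at or under 0.136 CPM in every fresh library. In stimulated cells 1 of the 18 rose in knockout, Idi2 (log2 fold change 0.93, edgeR adjusted p = 0.0045), and 1 fell, Mbtps1, which encodes a protease that cleaves SREBP precursors (−0.16, edgeR adjusted p = 0.0221). Over all tested genes 5.08% rose and 4.22% fell in that comparison. In fresh cells none of the 18 was called by edgeR, where 0.98% of all tested genes rose and 0.219% fell. At an unadjusted p under 0.05, 4 were lower and 0 higher, against 1803 of all 12759 tested genes in either direction.

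A further 16 genes of fatty acid metabolism gave 12 that rose and 4 that fell with stimulation in each genotype, where 41.7% of all tested genes rose and 42.2% fell in knockout and 40.8% rose and 41.4% fell in wild type. Slc25a1, the mitochondrial carrier that exports citrate for Acly, was at 59.4, 55.4 and 59.9 CPM in stimulated knockout, against 43.9, 44.3 and 40.1 CPM in stimulated wild type, and it was the only one of the 16 that edgeR called between these groups (log2 fold change 0.45, SE 0.08, edgeR adjusted p = 0.00247). Over all tested genes 5.08% rose and 4.22% fell between these groups. Acsl3, an acyl-CoA synthetase, rose with stimulation by a log2 fold change of 2.67 in knockout and 2.47 in wild type. Acss2, which makes acetyl-CoA from acetate, fell by 2.82 and by 2.66 on the same scale. In fresh cells 1 of the 16 rose in knockout, Pecr, a peroxisomal enoyl-CoA reductase (log2 fold change 0.70, edgeR adjusted p = 0.0347), against 0.98% of all tested genes.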

How the data were processed

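Messenger RNA was measured by sequencing in 12 libraries of mouse splenic cells, 3 in each of 4 groups taken from the source labels. The authors deposited 1 table of raw, unnormalized read counts per gene for each library. Reads were processed with TopHat or TopHat2 on mm10 and counted by HTSeq, and DESeq2 is also named, per the submitters' processing notes, which list names only. The sources used here state no version, gene annotation or strand setting. The 5 HTSeq summary lines of each file, 5.22% to 6.43% of its total, were left out. No replicates were merged, since a chi-square test over genes with at least 20 counts gave 4.26 to 18.6 per degree of freedom for each pair.

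The analysis used edgeR 4.0.16 under R 4.3.3. A filter by group (filterByExpr) left 12759 genes, TMM factors ran from 0.988 to 1.01, and 1 quasi-likelihood fit over all 12 libraries had a mean for each group. Two-sided tests were adjusted by Benjamini-Hochberg over all genes, threshold 0.05. Standard errors are the log2 fold change divided by the root of F, and 95% intervals are not adjusted for the number of genes. The steps were checked on simulated data. Alternatives were RLE size factors, no filter beyond 1 count, DESeq2 1.42.0, limma-voom (limma 3.58.1), the compared groups alone, leaving out each library, and leaving out those with at least 50 Y-linked counts. Exon lengths came from GENCODE M21 and promoters from RefSeq (GRCm38.p6). All 32 listed genes could be named; of the other lists, at most the 3 highest and 3 lowest called in a comparison. The listed genes, the other lists and the tests were chosen with earlier results of these data known, so the lists are not independent of the data.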

Additional observations from a re-analysis of the deposited data

Results flagged for a closer look

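The effect of Otub1 loss on Fdps differed between stimulated and fresh cells by a test of the difference itself, with an interaction log2 fold change of 0.57 (edgeR adjusted p = 0.00607). Its level was higher in 3 of 3 stimulated knockout libraries than in every stimulated wild-type library, and the fresh groups overlapped. These libraries also gave the call, so this is no separate support. The call held in all 17 alternatives run on it, with values from 0.50 to 0.61.

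For Scd1 the same test gave an interaction log2 fold change of 1.08 (edgeR adjusted p = 0.0238). Its level was higher in 3 of 3 stimulated knockout libraries than in every stimulated wild-type library, while fresh levels overlapped. Here too the same libraries gave the call. The call held in 13 of 17 alternatives, with values from 0.92 to 1.26 over all of them.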

How the results depend on the processing

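In stimulated cells 7 of the 13 calls held in all 12 alternatives, and the number of listed genes that rose was 7 to 16 with 1 library left out, the lowest without stimulated wild-type replicate 3. With stimulation, 24 of 26 calls held in every alternative in wild type and 25 of 28 in knockout. No called gene changed direction in any alternative. In fresh cells the count of listed genes that rose was 1 instead of 0 with no low-count filter, with DESeq2, with limma-voom and with only the groups compared, and 0 to 1 with 1 library left out. That gene was Lpin1. A positive interaction was called for 2 genes, against 6 with DESeq2, 1 when libraries holding Y-linked reads were left out, and 1 to 6 with 1 library left out. The cause of these changes was not tested. RLE factors moved the median of all genes by less than 0.1 in every comparison. Depth limits Me1 and the fresh levels of Fads2. No paired analysis was possible because the library numbers in the labels are not shared by the groups beyond 1 number; replicate numbers 1 to 3 follow the order of deposit and pair nothing.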

Other observations

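On a list of 6 genes of sterol efflux and LXR, 6 fell and none rose with stimulation in both genotypes by edgeR (6 of 6 below at an unadjusted p under 0.05, and 0 above), where 42.2% of all tested genes fell in knockout and 41.4% in wild type. Abca1, which pumps cholesterol out of the cell, had a log2 fold change of −3.09 in knockout and −3.01 in wild type. Mylip, an LXR-induced ubiquitin ligase for lipoprotein receptors, had −3.25 in knockout and −2.86 in wild type, and Nr1h3, which encodes an LXR, −2.57 and −2.72 (edgeR adjusted p from 2.69e-14 to 1.16e-06). Nr1h3 was low, with at most 3.60 CPM in a fresh library. Nr1h2, the other LXR gene, averaged 115 and 108 CPM in fresh knockout and fresh wild type, and 90.5 and 94.7 CPM in the stimulated groups. It had the smallest fall of the 6, −0.35 in knockout and −0.195 in wild type. The markers of dendritic and myeloid cells fell in the same comparison, and their part in these values was not tested. None of the 6 was called between knockout and wild type by edgeR, with 1 lower at an unadjusted p under 0.05 in stimulated cells and 1 higher in fresh cells. Of all 12759 tested genes, 3028 passed this unadjusted threshold in stimulated cells and 1803 in fresh cells.

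On a list of 10 genes of fatty acid oxidation 8 were tested, of which 2 rose and 6 fell with stimulation in both genotypes, where 41.7% of all tested genes rose and 42.2% fell in knockout and 40.8% rose and 41.4% fell in wild type. Beside Cpt1a the falls were small. Cpt1a, which lets long-chain fatty acids into mitochondria, had a log2 fold change of −2.74 in knockout and −2.89 in wild type (edgeR adjusted p = 5.06e-14 and 3.98e-14). The next lowest was Slc25a20, the carnitine carrier, at −0.39 and −0.38. Cpt2 and Acadl rose, by 0.36 and 0.19 in knockout and by 0.27 and 0.16 in wild type. None of the 8 was called between knockout and wild type in either state, and 0 had an unadjusted p under 0.05.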
